A study of Homo sapiens with 46 samples.

Results

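The nuclear-encoded machinery that brings proteins into mitochondria, folds them and degrades them was followed at the transcript level after silencing of single mitochondrial mRNAs. It was represented by 40 genes, chosen by their symbol among the 58735 genes of the count table: 8 subunits of the TOM complex or its partner SAM in the outer membrane, 13 of the TIM translocases and their partners, 6 chaperones and 13 proteases or their scaffold proteins. HEK293T cells, a human embryonic kidney line (wild type in the sample records), were treated for 48 hours with one of 11 chimeras at 2 µM, each a morpholino (an uncharged antisense oligomer) clicked to pCox4, a presequence that takes the oligomer into the matrix. The chimeras targeted the mRNA of ND1, ND2, ND3, ND4L or ND5 (complex I), CYTB (complex III), COX1, COX2 or COX3 (complex IV), or ATP6 or ATP8 (the ATP synthase). ATP6 and ATP8 share the same bicistronic mRNA, and the paper found that the ATP8 chimera also lowered ATP6 synthesis. They are kept here as separate treatments. Control cells received pCox4 in click reaction buffer with no morpholino, so control and treated cells all had the presequence and the delivery. There were 4 libraries in each group and 3 in the COX2 group (replicates 2, 3 and 4) and in the ND2 group (replicates 1, 3 and 4). Replicates 1 and 2 were batch 1 and replicates 3 and 4 batch 2, made on other days with other reagents. All 11 treatments were compared with the same 4 control libraries, so the comparisons are not independent, and what the morpholino itself does apart from its sequence cannot be told apart from silencing in this design.

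Nearly all mitochondrial proteins are made in the cytosol. Their presequences are recognised by receptors of the TOM complex, pass its TOMM40 pore, and are handed to the TIM23 translocase, whose motor is the matrix HSP70 (HSPA9). Carrier proteins travel instead with the small TIM chaperones to TIM22. In the matrix the presequence is removed by the PMPCA and PMPCB peptidase, the chaperonin of HSPD1 and HSPE1 folds the mature protein, and LONP1, CLPP and the proteases of the inner membrane degrade what is damaged or left unassembled. A rise in the transcripts of HSPD1, HSPE1, HSPA9, LONP1 and CLPP is the classical readout of the mitochondrial unfolded protein response, which has been studied with misfolded matrix proteins and with a mismatch between nuclear and mitochondrial translation.

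The promoters of the 3 members that passed the test against control (TIMM10, TIMM23 and PMPCA) are shown together with those of LONP1 and of the chaperonin pair, since the results below turn on them. Each is a RefSeq window on GRCh38.p14, from 250 bases before to 50 bases after an annotated start, written 5′ to 3′ on the strand of the gene. Capitals mark a match, on either strand, to the heat shock element GAANNTTC, the CHOP-ATF4 element TGATGNAA, the NRF1 site, the ETS site of GABP CCGGAAGT or the E-box CACGTG. The windows are chr11:57530705-57531004 (minus strand) for TIMM10, chr10:45972239-45972538 (plus) for TIMM23, chr9:136410408-136410707 (plus) for PMPCA, chr19:5720403-5720702 (minus) for LONP1, chr2:197500129-197500428 (plus) for HSPE1 and chr2:197499791-197500090 (minus) for HSPD1.
TIMM10: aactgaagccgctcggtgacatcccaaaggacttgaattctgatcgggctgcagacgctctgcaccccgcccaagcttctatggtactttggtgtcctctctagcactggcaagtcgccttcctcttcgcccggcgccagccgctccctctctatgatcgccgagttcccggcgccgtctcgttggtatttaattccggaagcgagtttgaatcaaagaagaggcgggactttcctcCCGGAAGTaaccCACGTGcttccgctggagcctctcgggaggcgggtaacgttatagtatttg
TIMM23: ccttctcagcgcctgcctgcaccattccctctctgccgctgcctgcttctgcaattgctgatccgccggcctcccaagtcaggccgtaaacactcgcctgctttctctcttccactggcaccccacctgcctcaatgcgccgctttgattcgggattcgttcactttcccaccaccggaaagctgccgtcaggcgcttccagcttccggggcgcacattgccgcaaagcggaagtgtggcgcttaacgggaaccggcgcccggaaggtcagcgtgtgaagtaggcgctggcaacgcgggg
PMPCA: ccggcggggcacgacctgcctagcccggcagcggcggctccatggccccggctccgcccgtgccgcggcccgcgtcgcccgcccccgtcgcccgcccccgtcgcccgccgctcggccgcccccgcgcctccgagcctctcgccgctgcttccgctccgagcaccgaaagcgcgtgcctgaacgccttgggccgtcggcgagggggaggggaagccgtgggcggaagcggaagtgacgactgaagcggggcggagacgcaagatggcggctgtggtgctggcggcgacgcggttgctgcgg
LONP1: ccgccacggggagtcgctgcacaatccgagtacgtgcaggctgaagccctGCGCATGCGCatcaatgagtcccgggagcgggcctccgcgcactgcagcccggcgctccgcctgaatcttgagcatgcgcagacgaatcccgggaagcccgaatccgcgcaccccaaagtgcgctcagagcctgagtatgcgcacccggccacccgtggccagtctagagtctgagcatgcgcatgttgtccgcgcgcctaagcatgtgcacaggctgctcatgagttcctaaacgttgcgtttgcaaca
HSPE1: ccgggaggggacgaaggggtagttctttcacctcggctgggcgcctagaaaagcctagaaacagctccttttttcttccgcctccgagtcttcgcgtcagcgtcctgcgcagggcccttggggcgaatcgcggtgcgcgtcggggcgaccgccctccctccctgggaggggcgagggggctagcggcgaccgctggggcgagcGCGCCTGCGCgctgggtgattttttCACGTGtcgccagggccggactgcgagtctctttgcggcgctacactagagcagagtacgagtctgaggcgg
HSPD1: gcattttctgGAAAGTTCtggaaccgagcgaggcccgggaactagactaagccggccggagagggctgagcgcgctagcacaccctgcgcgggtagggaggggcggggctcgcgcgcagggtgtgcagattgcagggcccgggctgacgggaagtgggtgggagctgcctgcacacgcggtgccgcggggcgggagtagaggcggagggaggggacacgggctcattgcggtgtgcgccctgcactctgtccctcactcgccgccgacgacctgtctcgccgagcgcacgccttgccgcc

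HSPE1 and HSPD1 lie head to head, and the HSPE1 window shares 204 bases with another HSPD1 window, chr2:197500225-197500524. The HSPD1 window shown holds the heat shock element, while the NRF1 site and the E-box of HSPD1 stand in that other window, which is not printed. HSPD1 was the only one of the 35 members matched in the RefSeq promoter table to hold it, against 8.21% of all 27305 genes of that table. An NRF1 site stood in the windows of 11 of the 35 members (31.4%), LONP1, HSPE1, HSPD1 and TOMM40 among them, against 6.98% of all genes. The ETS site was found in 6 of the 35 (17.1%, against 4.95%), TIMM10 among them, and the E-box in 7 (20%, against 8.77%). LONP1 is among those 7 through a second window, chr19:5720097-5720396 (minus), which holds 2 E-boxes and is not printed. The CHOP-ATF4 element was found in TIMM22 and PMPCB alone (5.71%, against 4.46%). The TIMM23 and PMPCA windows held none of these letters, which says nothing of the factors. A gene was counted if any of its windows held a match. The genes of the table were not matched to the members in expression, base composition or number of windows, so the shares carry no test.

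Libraries held 18876395 to 100698084 counts, and COX3 replicate 4 was the only one above 28121898. The HEK293T markers PAX2, KRT8, KRT18, VIM, NEFM and NEFL summed to between 1025 and 1322 CPM (counts scaled to library size) in every library. Of these, NEFM reached at most 2.025 and PAX2 at most 9.81 CPM. The 3 blood markers summed to at most 0.542 CPM, those of liver to 0.533 and those of endothelium to 2.26. Fibroblast markers summed to between 20.8 and 31.5 CPM, nearly all from COL1A1 (20.45 to 31.13). Of the 11 targeted reading frames, counted as separate genes, MT-ND1, MT-ND2 and MT-ND3 were higher and MT-CYB, MT-CO1 and MT-CO3 lower than in control in the matching treatment, with log2 fold changes from −1.33 (MT-CO1) to 1.02 (MT-ND2). The other 5 did not pass the test, so at the RNA level they give no check of the treatment.

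Among the members, the chaperonin HSPD1 was the most abundant transcript per length, at 286 ± 18.1 RPKM in control (CPM per kilobase of exon, SD, n = 4). The receptor TOMM20 (153 ± 2.52 RPKM), the prohibitin PHB2 (152 ± 6.34) and the translocase channel TIMM23 (140 ± 12.2) came next, and the SDs of these 3 overlap. TIMM13 followed at 83.5 ± 8.44 and the motor HSPA9 at 63.7 ± 2.33. The co-chaperonin HSPE1, which caps the HSPD1 barrel, was at 41.5 ± 2.03 RPKM, next to LONP1 at 42.4 ± 2.54. The lowest were the rhomboid protease PARL (4.34 ± 0.396 RPKM), SPG7 (2.23 ± 0.318, over a summed exon length of 36008 bases in the table) and TOMM5 (1.39 ± 0.464). Levels thus differed widely between genes and little between libraries. The highest of the 46 libraries stood above the lowest by a factor of 1.19 for TOMM70 and HSPA9, 1.27 for HSPD1, 1.76 for TIMM10, 2.18 for TOMM7 and 3.35 for TOMM5.

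**Figure D1:**
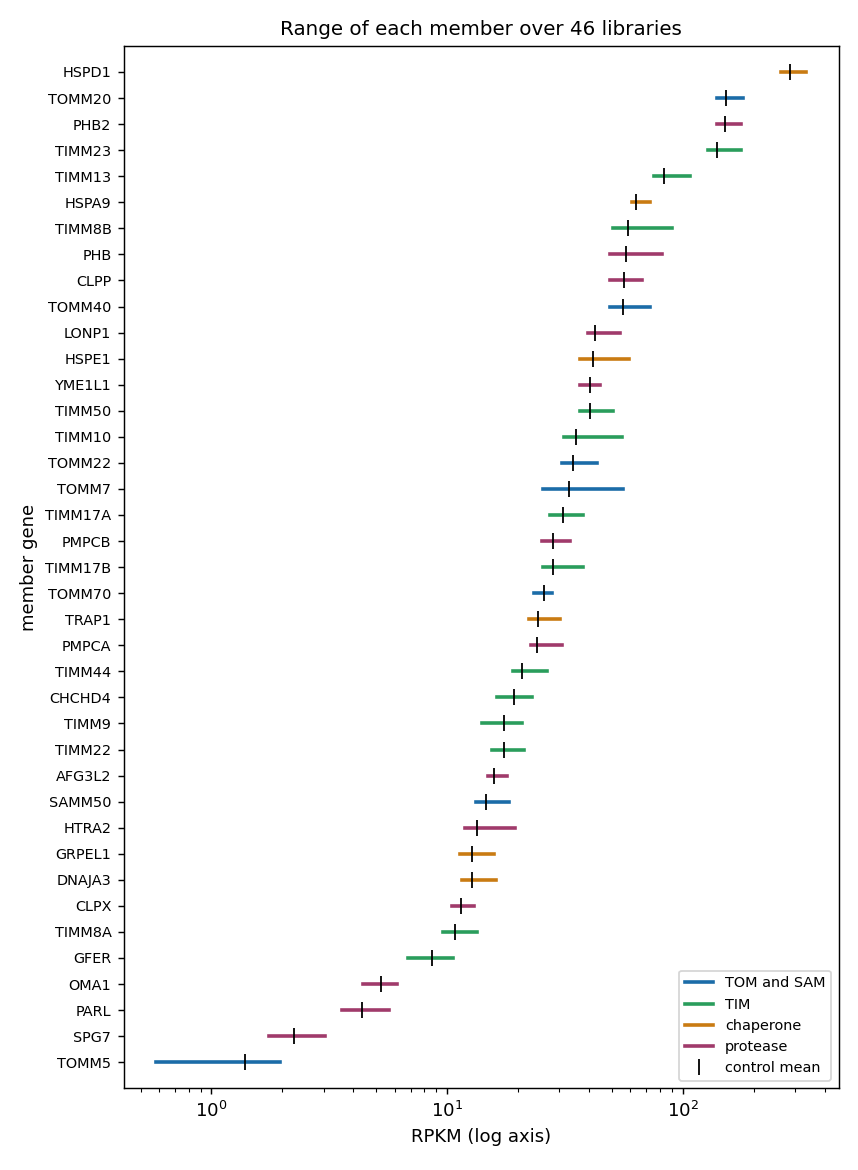
Level of each of 39 members in RPKM (CPM per kilobase of exon, log axis). Lines run from the lowest to the highest of 46 libraries and the tick marks the control mean (n = 4); HSPD1 is highest at 286 RPKM, TOMM5 is lowest and has the widest range.

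TOMM6, a small TOM subunit, had 0 counts in all 46 libraries. All 637 of its exonic bases overlap AL365205.1 on the same strand, a gene with 31 to 268 counts per library, and whether reads of TOMM6 were left uncounted was not tested, so no change is given for it. The other 39 members passed the filter on low counts in every comparison, with at least 49 counts in each library. Among these 39, overlap with other exons on the same strand was largest for PARL (47.2% of its exonic bases, with AC131160.1). TOMM5 (18.7%, with AL138752.2 and AL513165.2) and TIMM13 (13%, with LMNB2) came next. On the opposite strand it was largest for HTRA2 (36.9%), TIMM8B (32.3%), TIMM9 (30.5%), TRAP1 (29.3%), GFER (25.9%) and PHB (25.1%). The use of strand in counting is not given in the sources used here. TIMM23 has a near-identical partner, TIMM23B, which took 8.55% to 14.6% of the counts of the pair, so reads could be split between them.

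Against control, 3 of the 429 comparisons (39 members in 11 treatments) passed an adjusted p of 0.05 in edgeR's quasi-likelihood test, and all 3 were higher. Adjusted p-values are Benjamini-Hochberg values of this test over 20272 genes unless DESeq2 is named. Calls credited to edgeR are those of this main fit, over 46 libraries with a batch term, unless another setting is named. TIMM10 and PMPCA rose after COX2 silencing and TIMM23 rose after ND1 silencing. Over all genes tested in the 11 treatments, 0.171% of the comparisons passed. By treatment, 2 of 39 members were called after COX2 (0.469% of all genes) and 1 of 39 after ND1 (0.0888%). No member was called after ND2 (0.0247% of all genes), ND3 (0.00987%), ND4L (0.148%), ND5 (0.158%), CYTB (0.548%), COX1 (0.0543%), COX3 (0.306%), ATP6 (0.00987%) or ATP8 (0.0641%). DESeq2 on the same libraries called 18 of the 429 (0.655% over all genes), all higher.

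The calls rest on few libraries. Without control replicate 4, or without COX2 replicate 2, no member was called in any treatment, against 3 with all libraries, and without control replicate 2 or COX2 replicate 3 the count was 1. It was 5 without CYTB replicate 1, 6 without control replicate 1, ATP8 replicate 2 or COX2 replicate 4, and 7 without ATP6 replicate 2. Control replicate 4 also had the lowest median of the members of any library, with a log2 deviation from the mean of its batch of −0.13, while control replicates 1, 2 and 3 lay at −0.041, −0.054 and −0.074 and the median of genes with at least 10 CPM was −0.0057 in that library. Without it the median of the members in the mean of the treatments, described below, went from 0.072 to 0.060 and the members at an unadjusted p under 0.05 from 16 to 10. The highest medians were in ND1 replicate 3 (0.11), COX2 replicate 2 (0.10), CYTB replicate 1 (0.098) and ATP6 replicate 2 (0.094). Their scaling factors for library size were 0.9856, 0.9697, 0.9783 and 0.9787, against 1.029 in control replicate 4. The factor of COX2 replicate 2 was the lowest of any library, and a link between factor and median was not tested.

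At an unadjusted p under 0.05, 127 of the 429 comparisons were higher and 4 lower, against 5.38% and 4.41% of all genes. The median log2 fold change of the members was 0.13 after ND1, 0.12 after COX2, 0.10 after ATP8, 0.099 after COX3, 0.096 after CYTB, 0.081 after ATP6, 0.075 after ND4L, 0.060 after ND2, 0.055 after COX1, 0.025 after ND3 and 0.018 after ND5, and that of all genes lay between −0.0032 and 0.0040. At the unadjusted threshold 23 members were higher and 1 lower after ND1 (6.47% and 5.24% of all genes), the highest count of the 11. It was 19 higher and 0 lower after ATP8 (6.21% and 4.02%), 18 and 0 after COX2 (7.42% and 6.16%), 15 and 0 after CYTB (7.66% and 6.01%) and 15 and 0 after COX3 (5.65% and 4.74%). After ND4L 11 were higher and 0 lower (7.11% and 6.99%), and after ATP6 11 and 0 (5.39% and 3.69%). The counts were nearer to those of all genes after COX1 (6 and 0, 4.58% and 2.86%), ND2 (4 and 0, 2.34% and 2.57%), ND5 (4 and 2, 4.78% and 4.53%) and ND3 (1 and 1, 1.62% and 1.69%). Since these counts share the 4 control libraries and their genes vary together, they describe the libraries and carry no test of the list.

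**Figure D2:**
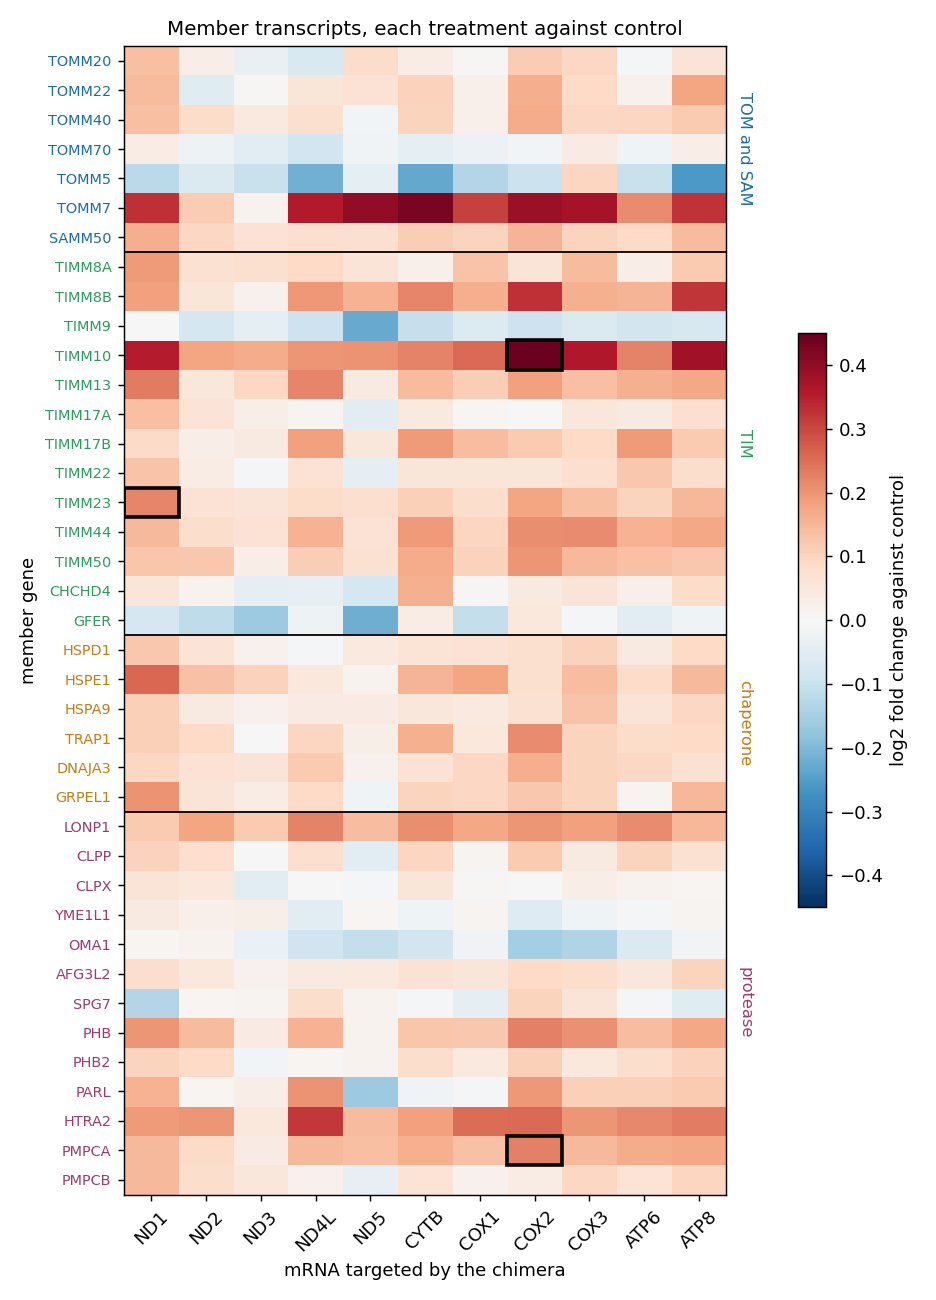
Log2 fold change against control of 39 members (rows, grouped by class) in 11 treatments (columns), from 1 fit over 46 libraries. Black frames mark the 3 changes that passed an adjusted p of 0.05; the highest value is TIMM10 after COX2 silencing (0.44) and the lowest TOMM5 after ATP8 silencing (−0.26), which did not pass.

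The TIM class held 2 of the 3 calls. TIMM10, which with TIMM9 forms a hexamer that escorts carrier proteins across the intermembrane space, was at 27.0, 29.8, 28.4 and 24.2 CPM in control replicates 1 to 4. It was at 42.8, 34.3 and 32.6 CPM in COX2 replicates 2, 3 and 4, so all COX2 libraries were above all controls. The log2 fold change was 0.44 (SE 0.10, 95% CI 0.24 to 0.64, adjusted p = 0.0275). It was 0.59 in batch 1 alone, where COX2 had only 1 library (replicate 2). In batch 2 alone it was 0.34 and did not pass (adjusted p = 0.239). In the 42 treated libraries together TIMM10 ran from 25.0 over a median of 32.6 to 42.8 CPM, and 37 of them were above both control libraries of their batch. The log2 fold changes of TIMM10 in the other treatments lay between 0.17 (ND3) and 0.38 (ATP8). None of these passed in the main edgeR fit. DESeq2 called TIMM10 also after ATP8 (adjusted p = 0.0273), COX3 (0.0228) and ND1 (0.0289), as did edgeR with no filter on low counts. The edgeR call after COX2 was lost without control replicate 1 (adjusted p = 0.0643) or 4 (0.136), without COX2 replicate 2 (0.233) or 3 (0.130), and without a batch term (0.302).

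TIMM23, the channel of the presequence translocase, was at 181, 186, 161 and 156 CPM in control replicates 1 to 4 and at 197, 217, 200 and 181 CPM in ND1 replicates 1 to 4. Each ND1 library was above both controls of its batch, while the control values of batch 1 overlap the ND1 values of batch 2. The log2 fold change was 0.22 (SE 0.0484, 95% CI 0.12 to 0.32, adjusted p = 0.0455), with 0.17 in batch 1 and 0.27 in batch 2 alone, neither of which passed (adjusted p = 0.926 and 0.119). The call was kept in 17 of the 46 fits that each left out 1 library (adjusted p 0.0203 to 0.371), and it was lost without each of the 4 controls and without ND1 replicate 2, 3 or 4. It was also lost without a batch term (adjusted p = 0.683) and when library-wise length trends were taken out by an offset (0.141). TIMM23B stood at 0.22 in the same comparison and did not pass (adjusted p = 0.151).

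The remaining TIM members were not called by the main edgeR fit. With no filter on low counts edgeR called TIMM8B, TIMM13, TIMM44 and TIMM50 in some treatments. Of the 143 comparisons in the class, 51 were higher and 3 lower at an unadjusted p under 0.05 (5.38% and 4.41% over all genes), and DESeq2 called 11 (0.655% over all genes). Those 11 were 4 of TIMM10, 2 of TIMM23 (after ND1 and COX2), 2 of TIMM13 (ND1 and ND4L), and 1 each of TIMM8A (ND1), TIMM50 (COX2) and TIMM44 (COX3). TIMM13, the partner of TIMM8A in the other small TIM hexamer, was between 0.042 (ND5) and 0.23 (ND1, adjusted p = 0.0884), and TIMM8B between 0.021 (ND3) and 0.33 (COX2). TIMM50, the receptor of the TIM23 complex, reached 0.20 after COX2 (adjusted p = 0.07425) and TIMM44, which tethers HSPA9 to the channel, 0.21 after COX3 (adjusted p = 0.110). TIMM22, the channel for carriers, lay between −0.041 (ND5) and 0.13 (ND1). TIMM9, the partner of TIMM10, ran from −0.23 (ND5) to −0.00048 (ND1), and the disulfide relay enzyme GFER from −0.22 (ND5) to 0.049 (COX2). Its partner in the relay, CHCHD4, ran from −0.078 (ND5) to 0.16 (CYTB). TIMM8A lay between 0.024 (CYTB) and 0.19 (ND1), and the channel partners TIMM17A and TIMM17B between −0.050 (ND5) and 0.14 (ND1) and between 0.031 (ND2) and 0.19 (ATP6).

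**Figure D3:**
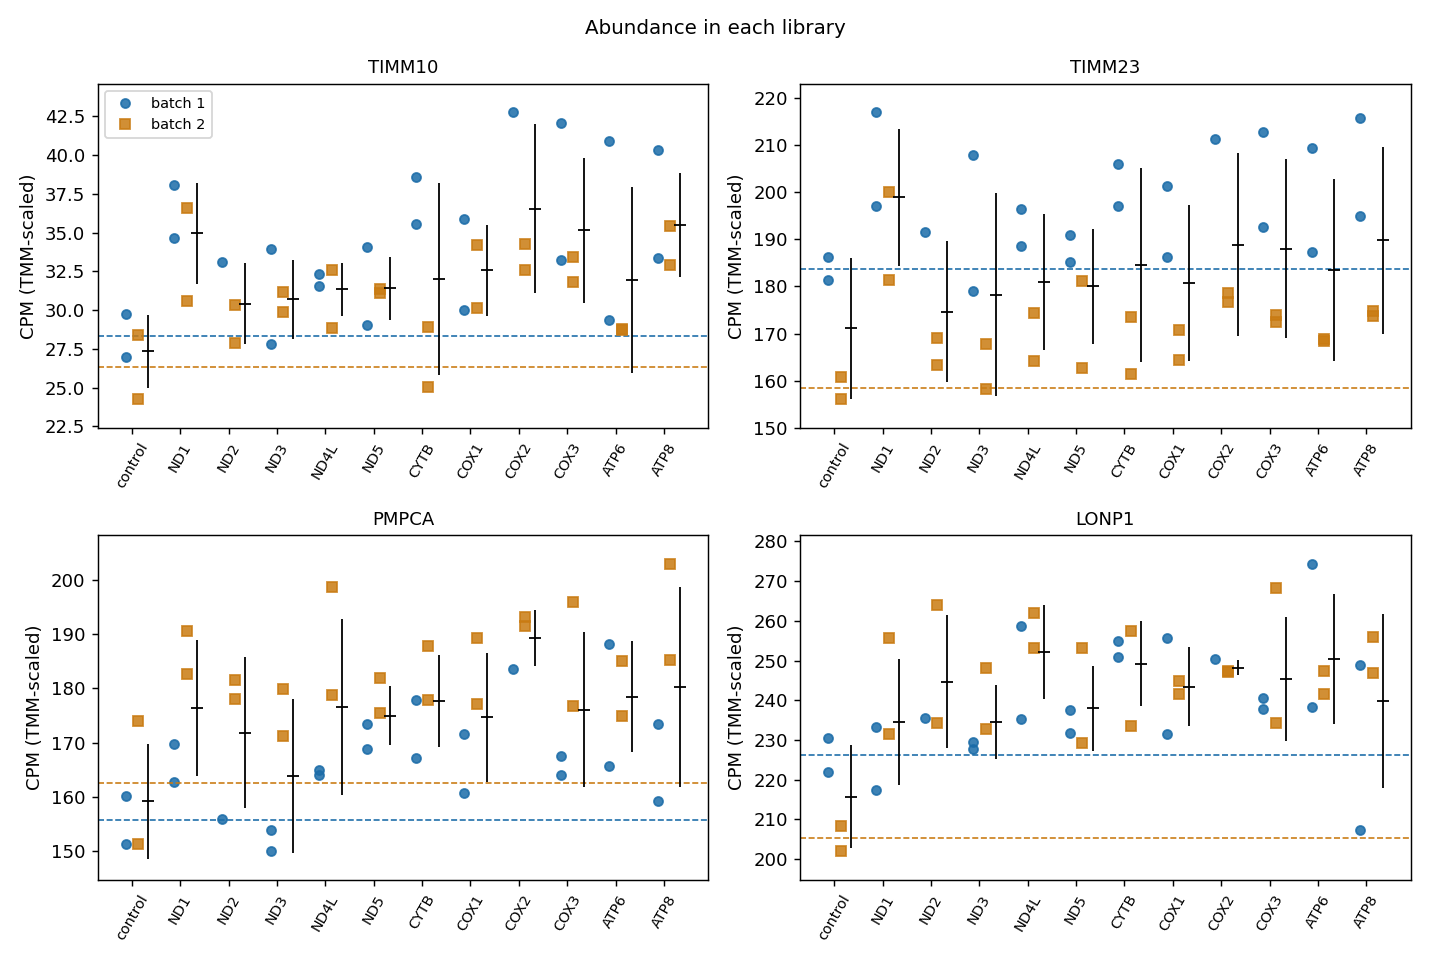
CPM of TIMM10, TIMM23, PMPCA and LONP1 in each of 46 libraries by group (circles, batch 1; squares, batch 2). Dashed lines are the control mean of each batch, and black marks the group mean with its SD (n = 3 or 4); the axes do not start at 0, and for TIMM10 all COX2 libraries (32.6 to 42.8 CPM) lie above all controls (24.2 to 29.8 CPM).

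Among the proteases PMPCA, the subunit of the presequence peptidase that binds the substrate, was called. It was at 160, 151, 174 and 151 CPM in control replicates 1 to 4 and at 184, 193 and 191 CPM in COX2 replicates 2, 3 and 4, all above all controls. The log2 fold change was 0.23 (SE 0.0543, 95% CI 0.12 to 0.34, adjusted p = 0.0340). It was 0.24 in batch 1 alone, where COX2 had only 1 library (replicate 2). In batch 2 alone it was 0.23 and did not pass (adjusted p = 0.252). The call was lost without control replicate 2 (adjusted p = 0.0745) or 4 (0.237), without COX2 replicate 2 (0.220) or 3 (0.153), and without a batch term (0.342). PMPCB, the catalytic subunit of the same enzyme, was at 0.035 in that treatment and ran from −0.036 (ND5) to 0.15 (ND1).

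LONP1, the main protease of the matrix and also a chaperone, was called in no treatment by the main edgeR fit. DESeq2 called it after ND4L (0.22, adjusted p = 0.0186) and CYTB (0.21, adjusted p = 0.0230). With a minimum count of 50, or with a replicate block in place of the batch, edgeR also called it after ND4L and CYTB. It was at 230.5, 222, 208 and 202 CPM in control replicates 1 to 4, and the treated libraries ran from 207 over a median of 243 to 274 CPM, 38 of 42 being above both controls of their batch. Its log2 fold changes ran from 0.12 (ND1) to 0.22 (ND4L, adjusted p = 0.06075 in edgeR), and each was at an unadjusted p under 0.05. After ND4L silencing it was at 0.13 in batch 1 alone and 0.32 in batch 2 alone (adjusted p = 0.9975 and 0.0348). CLPP, the other matrix protease of the classical stress readout, ran from −0.052 (ND5) to 0.12 (COX2), and CLPX, its ATPase partner, from −0.050 (ND3) to 0.060 (ND1). Of the 143 comparisons in the protease class, 42 were higher and 1 lower at an unadjusted p under 0.05 (5.38% and 4.41% over all genes), and DESeq2 called 5 (0.655%): LONP1 in 2 treatments, PMPCA and PHB after COX2, and HTRA2 after ND4L.

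HTRA2, a protease of the intermembrane space, was at 44.1, 44.0, 35.9 and 37.6 CPM in control and at 54.1, 49.2, 49.3 and 48.9 CPM after ND4L silencing, where all libraries were above all controls. The log2 fold change of 0.32 (SE 0.0755) did not pass in the main edgeR fit (adjusted p = 0.0514), and it was called by DESeq2 (0.32, adjusted p = 0.0117). With a minimum count of 50, a replicate block or library sizes from nuclear genes, edgeR called HTRA2 there as well. It was at 0.23 in batch 1 alone and 0.41 in batch 2 alone (adjusted p = 0.9975 and 0.0205). The values of the inner membrane proteases were smaller: YME1L1 lay between −0.057 (COX2) and 0.042 (ND1), AFG3L2 between 0.019 (ND3) and 0.099 (ATP8), its partner SPG7 between −0.13 (ND1) and 0.099 (COX2), and PARL between −0.17 (ND5) and 0.20 (ND4L). OMA1, which is activated by loss of membrane potential and cleaves OPA1 and DELE1, ran from −0.15 (COX2) to 0.015 (ND2). The prohibitins, which form a ring around the m-AAA protease, reached 0.23 (PHB, COX2, adjusted p = 0.0907) and 0.11 (PHB2, COX2).

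No chaperone was called in any treatment by the main edgeR fit. Under other edgeR settings, HSPE1 was called after ND1 silencing with no filter on low counts. TRAP1 was called after COX2 with a replicate block in place of the batch, and HSPA9 after COX3 with library-wise GC trends taken out by an offset. In the main fit the class was as follows. Of their 66 comparisons 14 were higher and 0 lower at an unadjusted p under 0.05 (5.38% and 4.41% over all genes), and DESeq2 called 2 (0.655%): TRAP1 after COX2 and GRPEL1 after ND1 silencing. HSPD1 was at 1259, 1302, 1146 and 1156 CPM in control and between 1114 and 1417 CPM in the treated libraries (median 1263). Its log2 fold changes ran from −0.0092 (ND4L) to 0.12 (ND1, adjusted p = 0.228). HSPE1 was at 86.1, 84.7, 79.1 and 78.1 CPM in control and between 72.3 and 117 CPM in the treated libraries, with its highest log2 fold change after ND1 (0.26, adjusted p = 0.237). HSPA9 lay between 0.018 (ND3) and 0.13 (COX3), TRAP1, the matrix HSP90, between −0.0013 (ND3) and 0.21 (COX2, adjusted p = 0.07425), and GRPEL1, the nucleotide exchange factor of HSPA9, between −0.019 (ND5) and 0.20 (ND1, adjusted p = 0.115). DNAJA3, its J-protein, lay between 0.018 (ND5) and 0.16 (COX2).

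In the outer membrane no TOM member was called by the main edgeR fit. With no filter on low counts edgeR called TOMM7 after ND1, ND4L, ND5, CYTB, COX1, COX2, COX3 and ATP8 silencing. With only the libraries compared, TOMM7 was called after ND4L, ND5, CYTB and COX2. TOMM20 was called after COX2 with library-wise GC trends taken out by an offset. In the main fit the class was as follows. Of the 77 comparisons 20 were higher and 0 lower at an unadjusted p under 0.05 (5.38% and 4.41% over all genes), and DESeq2 called 0 (0.655%). TOMM40, the pore, was at 219, 211, 195 and 182 CPM in control and between 178 and 263 CPM in treated libraries, with log2 fold changes from −0.014 (ND5) to 0.17 (COX2). The receptor TOMM20 ran from −0.068 (ND4L) to 0.14 (ND1), TOMM22 from −0.054 (ND2) to 0.18 (ATP8), and TOMM70, which receives carrier proteins, from −0.087 (ND4L) to 0.038 (COX3). SAMM50, which inserts barrel proteins such as TOMM40, lay between 0.066 (ND3) and 0.16 (ND1). The small subunits were the most variable members: TOMM7 ran from 0.014 (ND3) to 0.43 (CYTB, adjusted p = 0.125) and TOMM5 from −0.26 (ATP8) to 0.095 (COX3). Their residual SDs of 0.23 and 0.26 on the log2 scale were the highest of the 39, whose median was 0.0795 against 0.0939 over all genes with at least 10 CPM.

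The mean of the 11 treatments, which sets 42 treated libraries against 4 controls, was compared next to ask whether a change common to the treatments could be seen. No member passed in edgeR (0.261% of all genes did), 16 were higher (6.55% of all genes) and 0 lower (5.37%) at an unadjusted p under 0.05, and DESeq2 called 4 (1.11% of all genes): LONP1, HTRA2, PMPCA and TIMM10. The median over members was 0.072, against −0.0013 over all genes, and 33 of 39 were above 0 (49.4% of all genes). LONP1 was nearest to the threshold at 0.17 (SE 0.0424, 95% CI 0.088 to 0.26, adjusted p = 0.0511), and it passed in 8 of 12 alternative settings and in 11 of the 46 fits without 1 library. TIMM10 (0.27, adjusted p = 0.0655), PMPCA (0.14, adjusted p = 0.0718), HTRA2 (0.20, adjusted p = 0.0993) and TIMM23 (0.11, adjusted p = 0.147) followed, and TOMM7 had the highest value (0.30, adjusted p = 0.197). With no filter on low counts edgeR called 8 members here: PHB, LONP1, TIMM13, PMPCA, TIMM8B, TOMM7, HTRA2 and TIMM10.

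The classical readouts other than LONP1 had lower values in this comparison. The mean log2 fold change was 0.061 for HSPD1 (95% CI −0.0059 to 0.13), 0.12 for HSPE1 (−0.025 to 0.27), 0.062 for HSPA9 (0.00058 to 0.12) and 0.058 for CLPP (−0.034 to 0.15), so a common change above 0.27 lies outside all 4 intervals. YME1L1 (−0.0028, 95% CI −0.066 to 0.060) and SPG7 (0.0024, −0.078 to 0.083) had the values nearest 0, and TOMM5 (−0.12) the lowest.

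**Figure D4:**
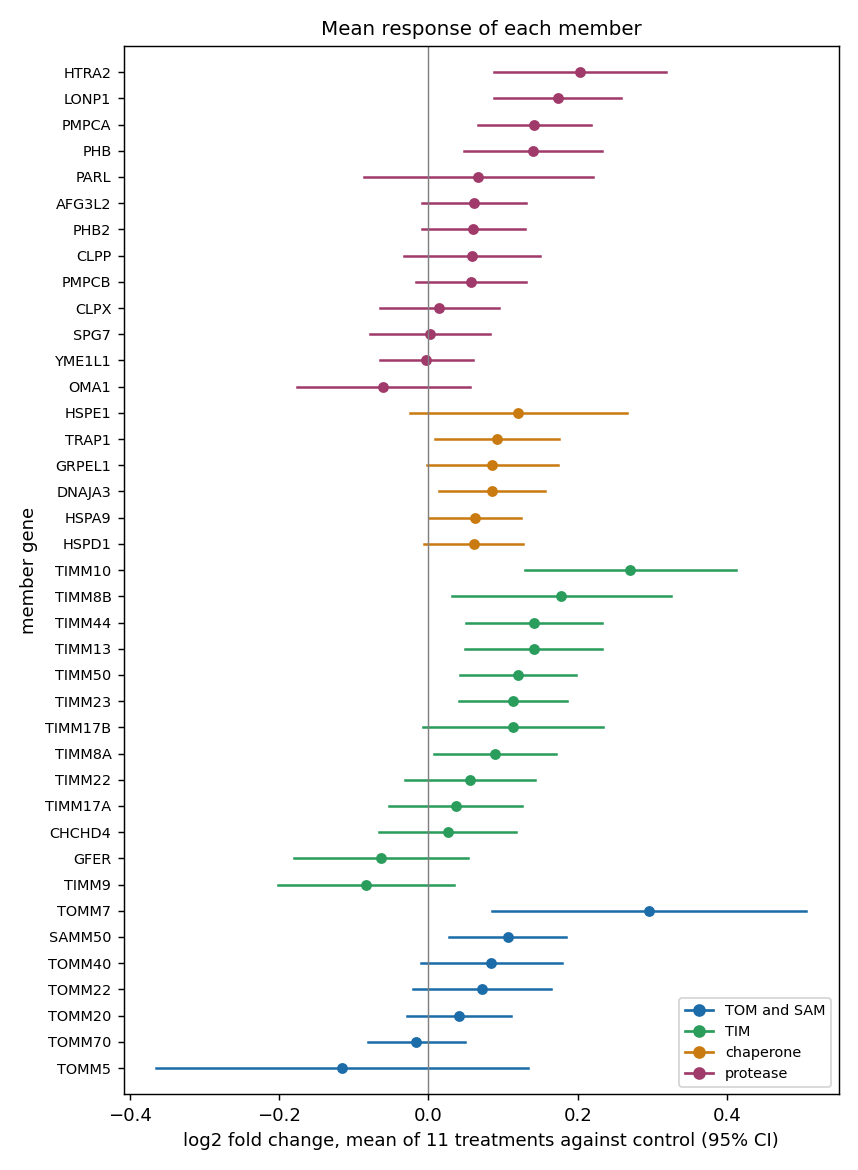
Log2 fold change of the mean of 11 treatments against control for 39 members, with 95% confidence intervals from the fit over 46 libraries, sorted within class. Of the 39 intervals 16 lie above 0, those of LONP1, TIMM10, HTRA2 and PMPCA among them, and no member passed an adjusted p of 0.05.

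Whether the chimeras differed from each other was tested with contrasts between treatments only, in the fit over 46 libraries. No member differed among the 11 treatments in edgeR (0.306% of all genes did), while 10 were at an unadjusted p under 0.05 (10% of all genes). TOMM20 had the lowest adjusted p (0.143, and 0.0115 in DESeq2, which called this member and no other, with 1.69% of all genes). It was at 569, 584, 638 and 591 CPM in ND1 replicates 1 to 4 and at 493, 532, 519 and 522 CPM in ND4L replicates 1 to 4, against 545, 534, 552 and 534 CPM in control, so the ND1 libraries were all above and the ND4L libraries all below the controls. When each treatment was set against the mean of the other 10, edgeR called 0 of the 429 comparisons (0.0991% over all genes), with 23 higher (3.58%) and 27 lower (3.41%) at an unadjusted p under 0.05. PARL after ND5 silencing was nearest, with a log2 difference from the other treatments of −0.26 (SE 0.0771, adjusted p = 0.105), and DESeq2 called it alone (adjusted p = 0.0447, 0.219% over all genes). SPG7 after ND1 silencing followed at −0.15 (adjusted p = 0.162). After ND5 silencing 13 members were lower than the other treatments at that unadjusted threshold and none higher (6.21% and 6.41% of all genes), and after ND3 silencing 9 were lower and none higher (2.93% and 2.82%). After ND1 silencing 9 were higher and 1 lower (5.46% and 5.33%), and after COX2 silencing 7 were higher and none lower (3.52% and 3.16%).

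Whether the mean response differed between the batches was tested next, and no member was called. The log2 difference of the mean response between batches (batch 2 minus batch 1) had a median of 0.059 over the members, against 0.0042 over all genes, and was above 0 for 32 of 39 (51.2% of all genes). At the unadjusted threshold 3 members had a larger value in batch 2 (2.81% of all genes) and 0 a smaller one (1.97%): LONP1 (0.18), TIMM13 (0.19) and GRPEL1 (0.17), each with an adjusted p of 0.9815. No gene of the 20272 passed (0%), and DESeq2 called none either. LONP1 had a mean log2 fold change of 0.085 in batch 1 alone and 0.26 in batch 2 alone (adjusted p = 0.9285 and 0.0380), with control means of 226 and 205 CPM in the 2 batches. The batches also differed in level: 30 of the 39 members differed between them in the same fit (57.1% of all genes), 6 higher and 24 lower in batch 2 (29.2% and 27.9% of all genes), from −0.27 for PHB and −0.21 for TIMM23 to 0.43 for SPG7 and 0.71 for TOMM5, a comparison chosen after the values were seen.

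Partner subunits were set side by side as a ratio within each library, which was also chosen after the values were seen and carries no test. The log2 ratio of TIMM10 to TIMM9 lay between −0.13 and 0.16 in the 4 controls and between 0.10 and 0.75 in the 42 treated libraries (median 0.39), of which 39 were above both controls of their batch. For HSPE1 to HSPD1 the ratio was −3.94 to −3.86 in control and −4.07 to −3.59 in treated libraries, 23 above and 12 below. For PMPCA to PMPCB it was 0.16 to 0.30 in control and 0.036 to 0.50 in treated libraries, 32 above and 7 below. For CLPP to CLPX 19 were above and 7 below, and for PHB to PHB2 29 above and 3 below. The counts were 25 above and 7 below for AFG3L2 to SPG7, 7 above and 20 below for TIMM8A to TIMM13, and 9 above and 23 below for TIMM17A to TIMM17B.

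Other genes of the same pathways were read from 3 lists, in which the genes named, other than FKBP4, were chosen after their values were seen. Of 30 further import and quality-control genes none was called in any treatment. In the mean of the treatments their median was 0.028, with 5 higher and 0 lower at an unadjusted p under 0.05 (6.55% and 5.37% of all genes), led by MTX1, a SAM partner (0.25, adjusted p = 0.0769), and ROMO1 (0.22, adjusted p = 0.215). Of 15 cytosolic chaperones driven by HSF1, FKBP4 was called after CYTB silencing (0.18, SE 0.0452, adjusted p = 0.0418, 0.548% of all genes called), and in the mean of the treatments the median was 0.014, with 1 higher (FKBP4) and 0 lower at an unadjusted p under 0.05, against the same 6.55% and 5.37%. HSPA1A (0.061), DNAJB1 (0.014) and HSPH1 (−0.028) were not called there. Of 11 regulators of the mitochondrial stress response none was called, with a median of −0.0047 and 0 higher and 1 lower (FOXO3, −0.096) at the unadjusted threshold, again against 6.55% and 5.37%. ATF4 was at 0.023 (adjusted p = 0.839), ATF5 at −0.0081, DDIT3, which encodes CHOP, at 0.12 (adjusted p = 0.5635), DELE1 at −0.031 and HSF1 at −0.0047.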

How the data were processed

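Poly(A) RNA of 46 HEK293T libraries (12 conditions) was sequenced, and the authors deposited 1 table of raw counts per gene with a gene length column in bases. Per the labels and the submitters' processing notes the build was GRCh38.p12, with R 4.3.0, DESeq2 1.40.2 and limma 3.56.2 named; the aligner, the counter and the use of strand are not given in the sources used here. Groups came from the sample titles.

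Counts were filtered with filterByExpr (minimum count 10), which left 20272 genes, scaled by TMM and fitted with edgeR 4.0.16 (quasi-likelihood test, R 4.3.3) with group and batch as terms, p-values being adjusted by the Benjamini-Hochberg method over all genes tested. CPM are TMM-scaled, and RPKM are CPM per kilobase of the deposited length. The contrasts were each treatment against control, the mean of the treatments against control, among treatments, each treatment against the mean of the other 10, and batch by mean response. Named members were all those called, 10 fixed members (HSPD1, HSPE1, HSPA9, LONP1, CLPP, YME1L1, OMA1, TOMM20, TOMM40 and TIMM23) and in each role the member with the largest absolute mean change, 23 in all. The members and lists were chosen with earlier results of these data known. The methods call the replicates biological, with the batches done on other days, and do not say how the 2 replicates within a batch were separated. Depth was 18876395 to 100698084 counts, and scripts were tested on simulated data. Alternatives included DESeq2 1.42.0, other scalings and filters, each batch alone and leaving out each library. Exon overlaps came from GENCODE 29.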

Additional observations from a re-analysis of the deposited data

Results flagged for a closer look

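In 3 of 59 groups of 4 libraries tested, 1 library stood apart from the other 3. The groups tested were the 23 named members in control, and TIMM10, TIMM23, PMPCA and LONP1 in each treatment with 4 libraries. Chance flags about 1 in 20 groups if the 4 libraries are alike, but they came from 2 batches. The values flagged were OMA1 in control replicate 3 (16.43 CPM), TIMM10 in ATP6 replicate 2 (40.91 CPM) and TIMM10 in COX3 replicate 1 (42.07 CPM).

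TOMM20 differed in direction between treatments. Each library was above both controls of its batch after ND1 (log2 fold change 0.137), COX2 (0.1131) and COX3 (0.09408) silencing, and each was below them after ND4L silencing (−0.06797). The difference between these treatments was not tested pair by pair. The joint test among the 11 treatments in edgeR gave an adjusted p of 0.1435.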

How the results depend on the processing

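The count of members called against control over the 11 treatments, 3, became 0 without a batch term, 0 in batch 1 alone, 6 with a minimum count of 50, 10 with library-wise GC trends taken out by an offset (chosen after seeing the data), 18 in DESeq2, 27 with only the libraries compared and 31 with no filter. Leaving out 1 library gave 0 to 7. For the mean of the treatments the count of 0 became 1 with library sizes from nuclear genes, 1 with the stricter filter, 1 with the length trend removed, 2 in batch 2 alone, 2 with the GC trend removed, 4 in DESeq2 and 8 with no filter, and 0 to 2 without 1 library. Among treatments it became 1 in DESeq2, 1 with the GC trend removed and 5 with no filter, and against the other treatments 1 in DESeq2 and 1 with no filter. Both stayed at 0 without any 1 library, as did the batch difference, which was 0 in its 8 alternatives too. The causes were not tested.

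With the replicate number as a replicate block in place of the batch, 9 members were called against control and 3 in the mean of the treatments. Same-numbered libraries of different groups had deviations correlated from −0.483 to 0.583 (median 0.0529, 96 of 242 pairs over 0.1), against −0.668 to 0.569 for differently numbered ones (median −0.0084, 199 of 727 over 0.1), and 22 of 46 libraries correlated best with their own number, a hint of pairing from the data. Since many same-number pairs were below 0.1, the numbers were not taken to pair libraries.

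Of the 23 named members, for which the alternatives were computed one by one, 3 changed sign in the mean of the treatments. GRPEL1 was at −0.0013 and PARL at −0.072 in batch 1 alone. YME1L1 was at 0.00049 with no filter, 0.0037 in batch 2 alone, 0.0093 with the length trend removed and 0.023 with the GC trend removed, and without control replicate 2, control replicate 4 or ND3 replicate 4 at 0.024, 0.0027 and 0.00017, in a range of −0.021 to 0.024 over the 46 libraries left out. Depth limited mainly TOMM5, with as few as 49 counts in a library.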
